A study of Mus musculus with 30 samples.

Results

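The genes described here encode the enzymes and carriers that bring pyruvate into mitochondria, turn the tricarboxylic acid (TCA) cycle, export citrate and interconvert glutamine and glutamate. They were taken by gene symbol from a fixed list of 35 names, and all 35 were found among the 43629 gene IDs counted in every library. By role they fell into 7 genes of pyruvate entry (the mitochondrial pyruvate carrier and the pyruvate dehydrogenase complex), 6 kinases and phosphatases that switch that complex, 3 of pyruvate carboxylation and malic enzyme, 10 of the cycle itself, 3 for NADP-dependent isocitrate dehydrogenases and cytosolic aconitase, 3 for citrate export and dicarboxylate carriage, 2 for glutamine and glutamate, and Acod1, which makes itaconate.

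The series sequenced messenger RNA from bone marrow derived macrophages of C57BL/6 mice, cultured to day 7 with CSF-1, the macrophage growth factor, at 20 ng/mL. Among wild type cells the groups were IL-4 (20 ng/mL) with prostaglandin E2 (PGE2, 10 µM), IL-4 with valinomycin (10 nM), IL-4 alone and no stimulus. Among cells transduced by lentivirus with a short hairpin RNA (shRNA), 1 hairpin group against Etv1 and 1 control hairpin group were each given IL-4 with PGE2, IL-4 alone or nothing. Each of these 10 groups had 3 libraries, which makes 30 in all, and neither the length of stimulation nor the hairpin sequences were given in the sources used here. IL-4 is the cytokine that induces the alternatively activated state, PGE2 is a lipid mediator whose receptors can raise cyclic AMP, valinomycin is a potassium ionophore that dissipates the mitochondrial membrane potential, and Etv1 is a transcription factor of the ETS family.

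Pyruvate made by glycolysis crosses the inner mitochondrial membrane through the pyruvate carrier and is oxidised to acetyl-CoA by the pyruvate dehydrogenase complex, which kinases (Pdk genes) turn off and phosphatases (Pdp genes) turn on. The cycle oxidises acetyl-CoA and yields reducing equivalents for the respiratory chain that sets up the membrane potential. In macrophages citrate also leaves the mitochondria for lipid synthesis, aconitate can be diverted to itaconate, and glutamine feeds the cycle as 2-oxoglutarate, so the balance of these steps is known to differ between activation states.

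Promoters are shown for 4 genes, because Glul and Idh2 had the largest called PGE2 change on either side in wild type cells among genes with an entry in the sequence table, because Idh1 is the cytosolic paralogue of Idh2, and because Ogdh alone held a complete cyclic AMP response element. Idh1 and Ogdh were chosen after their values were seen. Each sequence covers 250 bases before to 50 after a RefSeq transcription start on GRCm38.p6, read 5′ to 3′ on the gene's strand, and capitals mark the motifs searched on both strands.
Glul, chr1:153899679-153899978, plus strand: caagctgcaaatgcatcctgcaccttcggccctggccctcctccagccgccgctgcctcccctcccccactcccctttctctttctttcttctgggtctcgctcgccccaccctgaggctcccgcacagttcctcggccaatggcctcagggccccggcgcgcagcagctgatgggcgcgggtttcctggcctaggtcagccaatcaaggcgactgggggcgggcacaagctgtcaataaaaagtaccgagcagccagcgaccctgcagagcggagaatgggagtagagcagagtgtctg
Idh2, chr7:80115301-80115600, minus strand: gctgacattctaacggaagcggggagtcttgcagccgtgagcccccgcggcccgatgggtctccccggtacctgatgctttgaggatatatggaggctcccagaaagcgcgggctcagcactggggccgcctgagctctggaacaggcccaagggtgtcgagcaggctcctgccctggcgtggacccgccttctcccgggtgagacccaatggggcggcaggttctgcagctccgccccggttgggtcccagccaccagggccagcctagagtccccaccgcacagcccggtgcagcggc
Idh1, chr1:65186430-65186729, minus strand: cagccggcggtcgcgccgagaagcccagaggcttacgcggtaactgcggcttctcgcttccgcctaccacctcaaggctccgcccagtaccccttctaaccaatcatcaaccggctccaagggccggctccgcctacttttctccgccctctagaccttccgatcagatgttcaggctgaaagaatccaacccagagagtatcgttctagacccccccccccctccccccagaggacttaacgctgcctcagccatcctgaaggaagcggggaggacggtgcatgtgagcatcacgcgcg
Ogdh, chr11:6291347-6291646, plus strand: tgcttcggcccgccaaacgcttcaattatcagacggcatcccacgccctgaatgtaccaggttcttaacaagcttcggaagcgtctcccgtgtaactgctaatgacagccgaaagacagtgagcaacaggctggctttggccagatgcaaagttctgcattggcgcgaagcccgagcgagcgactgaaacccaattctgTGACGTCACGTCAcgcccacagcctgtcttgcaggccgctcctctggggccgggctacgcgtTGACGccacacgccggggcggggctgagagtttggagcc
In the Ogdh window the capitals are the cyclic AMP response element TGACGTCA and copies of its shorter form TGACG, which lies inside it. The shorter form was found in 13 of the 32 genes with an entry (40.6%), against 35.9% of 9489 expressed genes and 23.0% of all 27025 genes with a promoter. It occurred in 6 of the 12 genes with an entry that fell with PGE2 in wild type cells and in 1 of the 4 that rose. The full element was in 1 of 32 (3.12%), against 3.66% of expressed genes, and the ETS motif CCGGAAGT was in Dlst alone (3.12%, against 9.71% of expressed genes). The NRF1 core GCGCATGC was in Glud1 and, at a start other than the one shown, Ogdh (6.25%, against 6.15%), and the E-box CACGTG was in 5 (15.6%, against 12% of expressed genes). The STAT6 motif was in Fh1 and Idh3b (6.25%, against 6.68%), and the estrogen-related receptor motif TCAAGGTCA was in 0 (against 0.327%). The windows shown for Glul, Idh2 and Idh1 held none of these motifs. Pdp1, Idh3a and Me2 were not matched.

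Library totals were 10514496 to 13414293 counts in wild type and 6924973 to 30473040 in the shRNA experiment. A count of 3, given as a floor for orientation, corresponded to 0.224 to 0.285 and 0.0984 to 0.433 CPM, the counts scaled to a common library total. It removed no level or test, and values near or below it are uncertain. Etv1 was lower in all Etv1 hairpin groups, with 3.44 ± 1.23, 5.33 ± 0.58 and 8.89 ± 1.08 CPM (SD, n = 3 each) unstimulated, with IL-4 and with IL-4 and PGE2, against 10.6, 13.9 and 28.0 CPM in the control hairpin groups. The 7 macrophage markers (Adgre1, Csf1r, Cd68, Itgam, Mertk, Lyz2 and Fcgr1) were all detected. Their summed level was 8770 to 10000 CPM in Etv1 hairpin libraries, 15800 to 19700 in control hairpin libraries and 14300 to 18900 in wild type libraries. Neutrophil markers summed to 212 to 343 CPM in wild type libraries and to at most 2.47 in shRNA libraries, and those of dendritic cells to at most 5.06, erythroid cells 0.403, mast cells and basophils 5.24, stromal cells 6.8 and lymphocytes 2.08. In bulk RNA, a change in the number of cells of a type and a change in RNA per cell cannot be told apart. Exons of Mpc1, Pdha1, Me1, Idh3b and Slc25a10 overlap an annotated gene on the opposite strand, and those of Glul a gene on each strand. The sources used here do not say whether counting used strand, so reads of such partners cannot be told apart.

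Per unit of transcript length, Glul led the list in unstimulated wild type macrophages, at 393 ± 6.0 TPM (counts divided by exon length and scaled to a common total; SD, n = 3). Glul makes glutamine from glutamate. Idh1, the cytosolic NADP-dependent isocitrate dehydrogenase, followed at 287 ± 6.51 TPM, then Glud1, glutamate dehydrogenase, at 230 ± 7.37 and Acly, which splits exported citrate into acetyl-CoA and oxaloacetate, at 134 ± 4.0. These 4 levels did not overlap between neighbours. Cs, citrate synthase, at 117 ± 3.51 TPM overlapped with Idh3b at 113 ± 2.65, and Idh2 at 104 ± 3.61 overlapped with Mpc1 at 101 ± 2.76.

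Subunits of 1 complex did not have equal TPM values. The catalytic subunit gene Idh3a of the NAD-dependent isocitrate dehydrogenase was at 35.3 ± 1.01 TPM, below the regulatory subunit genes Idh3b at 113 and Idh3g at 91.2 ± 3.2. Mpc2 at 15.2 ± 0.416 TPM was likewise below its partner Mpc1. TPM ranks between genes depend on the annotated exon lengths used, which were 7344 bases for Mpc2 and 2082 for Mpc1. For the Idh3 genes they were 5072 (Idh3a), 3422 (Idh3b) and 2701 (Idh3g). In unstimulated control hairpin cells Mpc1 and Mpc2 were closer, at 48.8 and 12.9 TPM, against 101 and 15.2 in wild type cells. Without division by length, Mpc1 there had 30.1 ± 0.978 CPM and Mpc2 28.2 ± 4.98. These CPM values are of control hairpin cells only and do not account for the wider wild type gap. Suclg1, Pdhb, Sucla2, Fh1 and Slc25a10 lay between 45.5 and 48.3 TPM and overlapped in neighbouring pairs. Among the pyruvate dehydrogenase kinases, Pdk1 led at 49.9 ± 4.51 TPM, with Pdk3 at 20.5 ± 1.25 and Pdk2 at 15.8 ± 1.68, while Pdk4 had no count. The lowest levels that could be tested were those of Pcx, pyruvate carboxylase, at 2.85 ± 0.345 TPM and Acod1 at 2.15 ± 0.984, which overlapped. Pdk4 never exceeded 0.204 CPM in the 30 libraries and was not tested, so 34 genes were tested in each experiment.

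**Figure D1:**
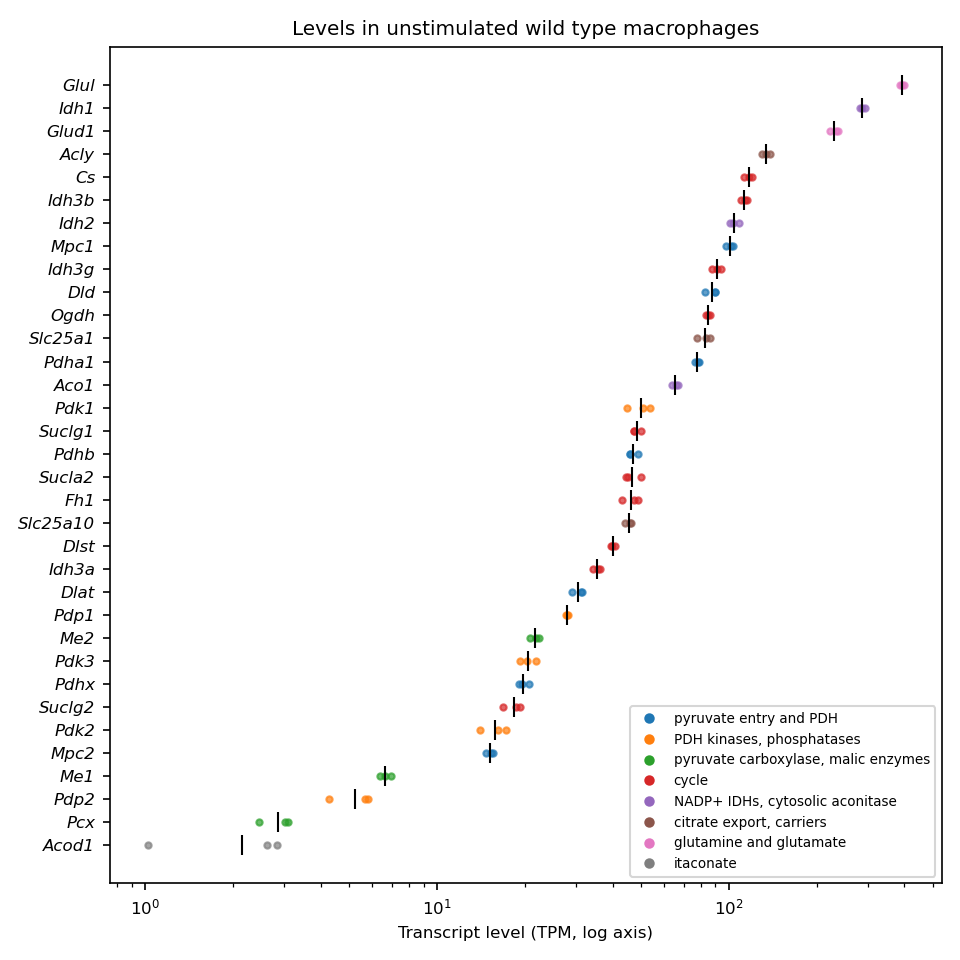
TPM on a log axis of the 34 detected genes in unstimulated wild type macrophages, 1 point for each of 3 libraries and a tick for the mean, grouped by role. Glul (393 TPM), Idh1 (287 TPM) and Glud1 (230 TPM) are at the top, and Acod1 (2.15 TPM) and Pcx (2.85 TPM) at the bottom.

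IL-4 alone raised genes of the cycle by small steps in wild type macrophages. Of 34 genes tested, 12 were higher and 4 lower than without stimulus (edgeR quasi-likelihood test, Benjamini-Hochberg adjusted p under 0.05), where 24.0% of all 12824 tested genes were called higher and 22.4% lower. The median log2 change of the 34 was 0.107, against 0.0101 over all tested genes. In the cycle, 7 of 10 genes were higher and 0 lower. Suclg1, a succinyl-CoA ligase subunit, had 79.7, 84.3 and 92 CPM with IL-4, against 65.7, 69 and 65.9 without it (log2 change 0.35 ± 0.0553, SE, adjusted p = 1.05e-05). Idh3a had 72.5, 65.1 and 65.2 CPM with IL-4, against 53.9, 51.9 and 55.3 without it (0.33 ± 0.063, adjusted p = 0.000135). In both genes the lowest IL-4 library lay above the highest unstimulated one. Fh1, fumarase, rose by 0.32 ± 0.063 (adjusted p = 0.000182) and Dlst, the succinyltransferase of the 2-oxoglutarate dehydrogenase complex, by 0.24 ± 0.0537 (adjusted p = 0.000855).

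Around the cycle the IL-4 changes went in both directions. Pdhb, the beta subunit of pyruvate dehydrogenase, had 65.7, 67.7 and 68.4 CPM with IL-4, against 53.1, 56.5 and 53.2 without it (log2 change 0.31 ± 0.0542, adjusted p = 4.52e-05). Me2, the mitochondrial malic enzyme, had 36.4, 34.8 and 31.3 CPM with IL-4, against 47.6, 45.1 and 48.9 without it (-0.47 ± 0.0653, adjusted p = 2.1e-06). The cytosolic malic enzyme Me1 was also lower, at 4.53, 4.46 and 6.02 CPM with IL-4, against 7.32, 8 and 7.7 without it. None of these pairs of groups overlapped. Idh1 had 186, 193 and 184 CPM with IL-4, against 238, 244 and 234 without it (-0.35 ± 0.0503, adjusted p = 3.65e-06), while Aco1, the cytosolic aconitase, had 116, 112 and 109 CPM, against 88.6, 86.3 and 90.6 (0.34 ± 0.0481, adjusted p = 2.87e-06). The IL-4 and unstimulated groups were thus apart in Idh1 and Aco1, with opposite directions. Of 6 switch genes, 5 were tested and 0 were called. The summed macrophage markers were at 15600 to 17000 CPM with IL-4, against 18200 to 18900 without it (2 of 7 called higher and 4 lower), and their part in these values was not tested.

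The remaining named IL-4 calls did not hold under every setting. Pcx had 6.63, 5.42 and 5.7 CPM with IL-4, against 3.49, 4.28 and 4.4 without it (log2 change 0.54 ± 0.163, adjusted p = 0.00919), but 0.44 with adjusted p = 0.0542 without unstimulated replicate 1. Omitting the same library took Cs to 0.12 (adjusted p = 0.0627). Glud1 (-0.15 ± 0.0474, adjusted p = 0.0103) came to -0.13 without unstimulated replicate 3 (adjusted p = 0.0557) and to -0.11 without IL-4 replicate 2 (adjusted p = 0.0709). Idh2, the mitochondrial NADP-dependent isocitrate dehydrogenase (0.14 ± 0.0563, adjusted p = 0.0389), lost its call without unstimulated replicate 1 or 3 or IL-4 replicate 2 (adjusted p 0.0898 to 0.164), and with all libraries under RLE size factors, no low count filter, DESeq2 or a fit of the compared groups only (adjusted p 0.054 to 0.125). Acly (0.11 ± 0.0441, adjusted p = 0.045) lost its call without replicate 1 or 2 of either group (adjusted p 0.0767 to 0.179), and under the same 4 settings (adjusted p 0.0627 to 0.197). Since no label ties the replicates to different animals or dishes, a p-value here speaks only of the spread among these samples, and that spread may be technical.

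PGE2 added to IL-4 lowered most genes of the cycle in wild type macrophages and raised Glul and 2 pyruvate dehydrogenase kinases. Against IL-4 alone, 5 of 34 genes were higher and 14 lower, where 29.9% of all tested genes were called higher and 29.5% lower. The median log2 change was -0.0785, against 0.00585 over all tested genes. In the cycle 9 of 10 genes were lower and 0 higher, with a median of -0.245, and only the ADP-forming succinyl-CoA ligase subunit Sucla2 was not called. Of the 7 pyruvate entry genes, 1 was lower and 0 were higher. The summed macrophage markers were at 15900 to 17300 CPM with PGE2, against 15600 to 17000 with IL-4 alone (1 of 7 called higher and 2 lower).

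Among the 10 cycle genes, Idh3a fell furthest. It had 41, 35 and 39.6 CPM with PGE2, against 72.5, 65.1 and 65.2 with IL-4 alone (log2 change -0.81 ± 0.0657, adjusted p = 2.31e-10). Idh3b had 86.7, 86.5 and 87 CPM, against 127, 136 and 127 (-0.58 ± 0.0469, adjusted p = 1.91e-10). No library overlapped between the groups in either gene, and the third subunit, Idh3g, was lower too, at 66.4, 60.9 and 62.9 CPM, against 67.1, 75.2 and 76.7. Fh1 had 40, 37.7 and 34.5 CPM with PGE2, against 57.8, 59.4 and 60.1 (-0.66 ± 0.0649, adjusted p = 7.02e-09). Suclg1 had 60, 57.7 and 59.5 CPM, against 79.7, 84.3 and 92 (-0.53 ± 0.0561, adjusted p = 1.98e-08). With PGE2 every library of Suclg1 lay below the unstimulated range of 65.7 to 69 CPM, and every library of Fh1 below the unstimulated 43.6 to 49.8 CPM.

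The switch of pyruvate dehydrogenase changed on both of its sides. Pdp1, the phosphatase subunit that reactivates the complex, had 19.9, 17.5 and 21.4 CPM with PGE2, against 35.7, 41.4 and 40.7 with IL-4 alone (log2 change -1.005 ± 0.0763, adjusted p = 6.91e-11). Pdk3, a kinase that inactivates it, had 27.8, 32.1 and 29.5 CPM, against 17.4, 17 and 17.5 (0.78 ± 0.0822, adjusted p = 1.79e-08). The groups were fully apart in both genes. Pdk2, another kinase, had 18.8, 24.3 and 25 CPM, against 13.9, 15.5 and 18.7 (0.49 ± 0.151, adjusted p = 0.0113), with the lowest PGE2 library close to the highest IL-4 one. Without IL-4 replicate 1 the Pdk2 change was 0.40 with adjusted p = 0.0522. Pdk1 had 124, 127 and 136 CPM with PGE2, against 123, 137 and 119, and was not called.

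Outside the cycle and the pyruvate dehydrogenase switch, Glul rose and Idh2 fell. Glul had 809, 757 and 758 CPM with PGE2, against 432, 375 and 457 with IL-4 alone (log2 change 0.88 ± 0.0558, adjusted p = 3.94e-12). Idh2 had 49.5, 45.1 and 47 CPM, against 88.1, 93.8 and 85.9 (-0.92 ± 0.0595, adjusted p = 4.09e-12). Neither gene had overlapping groups. The Idh2 paralogue Idh1 had 175, 194 and 173 CPM, against 186, 193 and 184, and was not called. Slc25a10, the mitochondrial dicarboxylate carrier, was lower, at 32.4, 28.1 and 29.6 CPM, against 40.9, 46.5 and 42.3, while the citrate carrier Slc25a1 at 61.9, 62.5 and 60.4 CPM overlapped with its IL-4 group at 53.5, 59.3 and 63.7 and was not called. Glud1 fell by 0.26 ± 0.0479 on the log2 scale (adjusted p = 6.83e-05). Me2 was higher, at 42.3, 41.7 and 43.2 CPM, against 36.4, 34.8 and 31.3, which still left every PGE2 library below the unstimulated 45.1 to 48.9 CPM.

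Of the PGE2 calls, 3 of the 5 higher and 11 of the 14 lower were kept under every alternative setting and every omitted library. Beside Pdk2, the exceptions were Aco1 (0.12 without IL-4 replicate 3 or PGE2 replicate 2, adjusted p 0.0664 and 0.0589), Cs (-0.10 without PGE2 replicate 3, adjusted p = 0.0811), Ogdh (-0.12 without the same library, adjusted p = 0.0521) and Suclg2 (-0.20 without it, adjusted p = 0.0788, -0.18 without IL-4 replicate 3, adjusted p = 0.116, and adjusted p = 0.0613 by DESeq2). Acod1 had 0.69, 0.686 and 2.14 CPM with PGE2, against 1.13, 3.11 and 2.58 with IL-4 alone, and was not called (-1.03 ± 0.561, adjusted p = 0.135). It passed the threshold at -1.73 without PGE2 replicate 3 (adjusted p = 0.023), at -1.34 without IL-4 replicate 1 (adjusted p = 0.0438), and at -1.03 with all libraries and no low count filter (adjusted p = 0.00697).

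**Figure D2:**
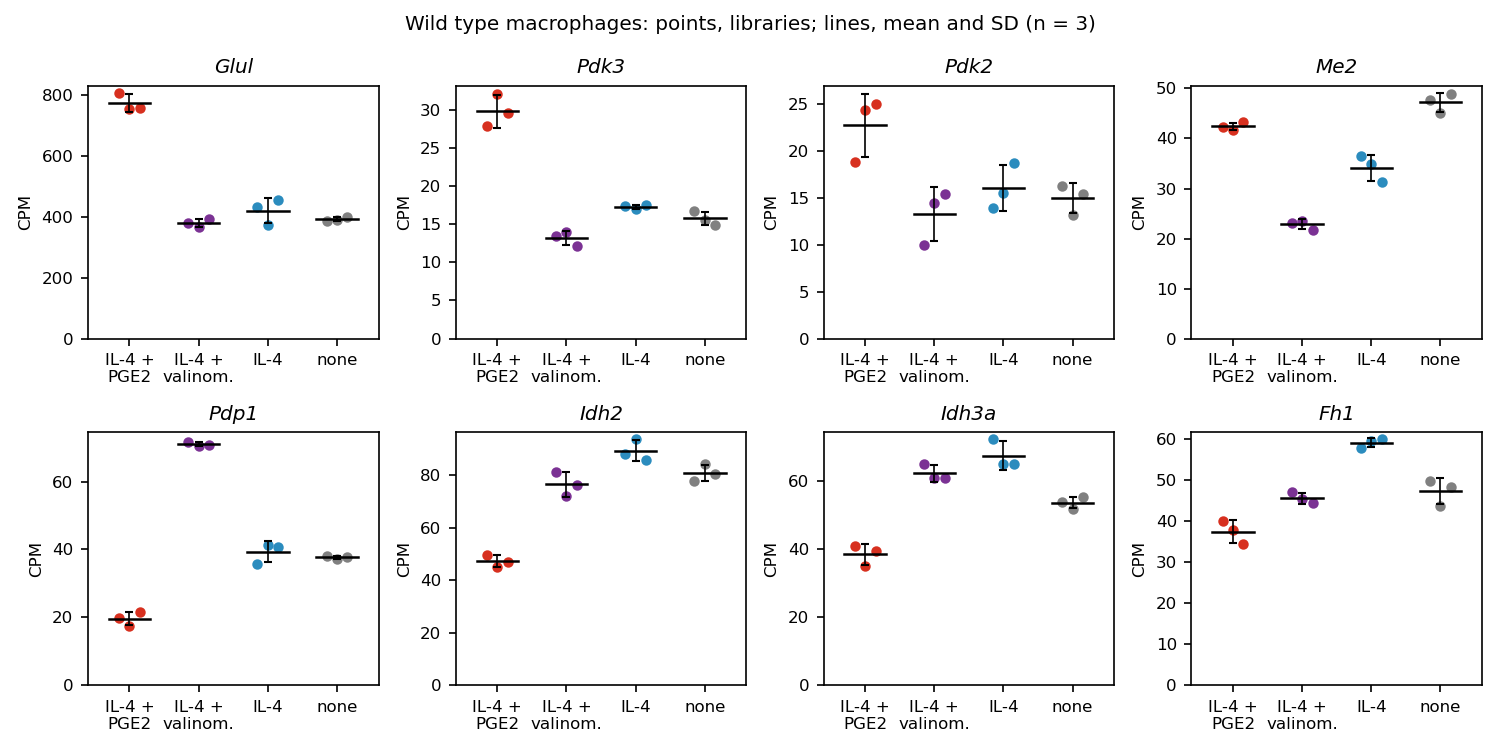
CPM in wild type macrophages of 8 genes, 1 point per library, with mean and SD over 3 libraries for IL-4 with PGE2, IL-4 with valinomycin, IL-4 alone and no stimulus. Glul and Pdk3 are highest with PGE2, Pdp1 is highest with valinomycin (70.6 to 71.8 CPM) and lowest with PGE2 (17.5 to 21.4 CPM), and Idh2, Idh3a and Fh1 are lowest with PGE2.

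Valinomycin added to IL-4 lowered 14 of the 34 genes and raised 2, among them genes of citrate export, the NADP-dependent isocitrate dehydrogenases and glutamate metabolism. Among all tested genes 19.4% were called higher and 18.9% lower. The median log2 change of the 34 was -0.106, against -0.0269 over all tested genes. In the cycle 3 of 10 genes were lower and 0 higher. All 3 genes of citrate export and dicarboxylate carriage, all 3 of the NADP-dependent isocitrate dehydrogenases and cytosolic aconitase, and both glutamine and glutamate genes were lower. The PGE2 and valinomycin comparisons use the same 3 IL-4 libraries, so their values stand side by side and their calls are not independent. The summed macrophage markers were at 14300 to 15100 CPM with valinomycin, against 15600 to 17000 with IL-4 alone (1 of 7 called higher and 2 lower). Neutrophil markers were at 212 to 283 CPM, against 282 to 321, with 1 of 7 tested called lower and all 7 changes below 0, and the part of either list in the values below was not tested.

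Pdp1 was the largest valinomycin change and was higher, with 71.8, 70.6 and 70.9 CPM, against 35.7, 41.4 and 40.7 with IL-4 alone (log2 change 0.86 ± 0.0646, adjusted p = 3.39e-10). Me2 had 23.2, 23.6 and 21.8 CPM with valinomycin, against 36.4, 34.8 and 31.3 (-0.58 ± 0.0714, adjusted p = 8.22e-07). Pdk3 had 13.5, 13.9 and 12.1 CPM, against 17.4, 17 and 17.5 (-0.39 ± 0.0917, adjusted p = 0.00156). In all 3 of these genes the groups did not overlap. The PGE2 changes against the same IL-4 libraries were -1.005 for Pdp1, 0.31 for Me2 and 0.78 for Pdk3. Fh1 had 47, 45.4 and 44.3 CPM, against 57.8, 59.4 and 60.1 (-0.38 ± 0.063, adjusted p = 5.02e-05), beside -0.66 with PGE2. Idh3a had 65.2, 61 and 60.9 CPM, overlapped with its IL-4 group and was not called (-0.11, adjusted p = 0.154).

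On the citrate side, Slc25a1, which carries citrate out of mitochondria, had 39.7, 48.2 and 47.4 CPM with valinomycin, against 53.5, 59.3 and 63.7 with IL-4 alone (log2 change -0.39 ± 0.0731, adjusted p = 0.000181). Slc25a10 had 36.5, 32.1 and 31.7 CPM, against 40.9, 46.5 and 42.3 (-0.37 ± 0.0719, adjusted p = 0.000263). The lowest IL-4 library exceeded the highest valinomycin one in both carriers. Aco1 fell by 0.26 ± 0.0478 on the log2 scale (adjusted p = 0.000121), Idh1 by 0.24 ± 0.051 (adjusted p = 0.00054), Idh2 by 0.22 ± 0.0564 (adjusted p = 0.00305), Ogdh by 0.21 ± 0.0461 (adjusted p = 0.00104) and Glud1 by 0.19 ± 0.0477 (adjusted p = 0.00258). Of the 16 calls, 1 higher and 11 lower were kept under every setting. Dld lost its call without IL-4 replicate 2 (0.14, adjusted p = 0.0693). Pdk1 (-0.45 ± 0.151, adjusted p = 0.0438) lost its call without any 1 IL-4 library or valinomycin replicate 2 (adjusted p 0.0549 to 0.136), and with all libraries under 3 settings (adjusted p 0.0619 to 0.126). Glul (-0.15 ± 0.056, adjusted p = 0.0393) lost it without IL-4 replicate 1 or 3 or valinomycin replicate 1 or 2 (adjusted p 0.114 to 0.276) and under 3 settings (adjusted p 0.0564 to 0.121), and Acly (-0.12 ± 0.044, adjusted p = 0.0328) without IL-4 replicate 1 or 2 or any 1 valinomycin library (adjusted p 0.0637 to 0.102) and under 3 settings (adjusted p 0.0684 to 0.214).

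Set directly against valinomycin, PGE2 gave 9 higher and 12 lower genes of 34, where 31.7% of all tested genes were called higher and 31.5% lower. The median log2 change was -0.0829, against 0.00461 over all tested genes. Pdp1 differed most, at 19.9, 17.5 and 21.4 CPM with PGE2, against 71.8, 70.6 and 70.9 with valinomycin (log2 change -1.86 ± 0.0718, adjusted p = 2.1e-16). Pdk3 had 27.8, 32.1 and 29.5 CPM with PGE2, against 13.5, 13.9 and 12.1 (1.18 ± 0.0856, adjusted p = 2.59e-11), and Glul had 809, 757 and 758 CPM, against 380, 366 and 395 (1.03 ± 0.056, adjusted p = 1.93e-13). In these 3 genes the PGE2 and valinomycin libraries were far apart.

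Further differences between the agents ran through the malic enzyme, the isocitrate dehydrogenases and the carriers. Me2 was higher with PGE2 than with valinomycin by 0.89 ± 0.07 (adjusted p = 1.01e-10), Aco1 by 0.41 ± 0.0477 (adjusted p = 8.75e-08), Slc25a1 by 0.45 ± 0.0732 (adjusted p = 9.82e-06) and Pdk2 by 0.77 ± 0.155 (adjusted p = 0.000442). Lower with PGE2 were Idh2 (-0.70 ± 0.0602, adjusted p = 5.39e-10), Idh3a (-0.69 ± 0.066, adjusted p = 2.81e-09) and Idh3b (-0.60 ± 0.0469, adjusted p = 8.87e-11), while Idh1 was higher by 0.19 ± 0.0512 (adjusted p = 0.0024). Acly was higher by 0.19 ± 0.044 (adjusted p = 0.000506). Of these 21 calls, Pdk1 (0.48 ± 0.151, adjusted p = 0.0209) lost its call without PGE2 replicate 3 (0.44, adjusted p = 0.0633), with no low count filter (adjusted p = 0.0634) and with the compared groups only (adjusted p = 0.0773), and Pdhx without PGE2 replicate 2 or valinomycin replicate 1 (adjusted p 0.0662 and 0.0668).

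Against unstimulated cells, IL-4 with PGE2 left 8 genes higher and 14 lower, where 30.1% of all tested genes were called higher and 28.6% lower (medians -0.0829 and 0.00103). Cells given IL-4 with valinomycin had 8 higher and 7 lower, where 26.9% were called higher and 25.8% lower (medians -0.0268 and -0.00654). With PGE2 the cycle had 0 higher and 6 lower genes of 10, and with valinomycin 3 higher and 0 lower. Idh3a illustrates this, since it was lower than in unstimulated cells with IL-4 and PGE2 (-0.48 ± 0.0672, adjusted p = 1.37e-06) and higher with IL-4 and valinomycin (0.22 ± 0.0634, adjusted p = 0.00634). Me2 was lowest with IL-4 and valinomycin (-1.05 ± 0.0689, adjusted p = 4.78e-12). Idh1 was lower in both, at -0.40 ± 0.0505 with PGE2 (adjusted p = 2.67e-07) and -0.59 ± 0.0507 with valinomycin (adjusted p = 5.9e-10). Single libraries ended the calls of Pcx, Slc25a1 and Me2 in the first of these comparisons (each of the 6 libraries ended at least 1 of these calls when left out, adjusted p 0.0527 to 0.141; DESeq2 also ended Me2 and Slc25a1) and in the second of Pdk3 (without unstimulated replicate 1 or 2 or valinomycin replicate 3) and Slc25a1 (without valinomycin replicate 1; adjusted p 0.0507 to 0.127). The Pdk3 call was also lost with no low count filter and with DESeq2 (adjusted p 0.064 and 0.0902).

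In the shRNA experiment IL-4 changed 5 of the 34 genes in Etv1 hairpin cells and 7 in control hairpin cells. In Etv1 hairpin cells 5 of 34 were higher and 0 lower with IL-4, where 10.9% of 12382 tested genes were called higher and 7.16% lower (medians 0.0658 for the 34 and 0.0122 for all). In control hairpin cells 4 were higher and 3 lower, where 17.2% were called higher and 17.1% lower (medians 0.0259 and -0.00102). Aco1 was higher with IL-4 in both, at 0.25 ± 0.0607 in Etv1 hairpin cells (adjusted p = 0.00533) and 0.38 ± 0.0617 in control hairpin cells (adjusted p = 5.7e-05). Of the 5 that rose in Etv1 hairpin cells, Aco1 and Fh1 were among the 12 that rose in wild type cells (40.0% of the 5 and 16.7% of the 12). All 4 genes that rose in control hairpin cells (Aco1, Cs, Dlst and Fh1) were among the 12 (33.3% of those). The matching overlaps over all tested genes were not computed. Me2 was lower in control hairpin cells (-0.36 ± 0.0754, adjusted p = 0.000755), as was Pdk1 (-0.44 ± 0.12, adjusted p = 0.0089).

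Of the 5 IL-4 calls in Etv1 hairpin cells, those of Idh1 and Aco1 were kept. Pdha1 (0.17), Pdk2 (0.47 ± 0.148, adjusted p = 0.0297) and Fh1 (0.20) each lost their call without 4 or 5 of the 6 libraries taken singly, and each of the 6 ended at least 1 of these calls (adjusted p 0.0508 to 0.15). With the replicate number as a block, whose effect was the same in both hairpins, Idh3a was also higher (0.20, adjusted p = 0.00945). Of the 7 in control hairpin cells, those of Aco1, Me2 and Pdk1 were kept under every setting. Cs, Dlst and Fh1 lost their calls without single libraries (Cs without unstimulated replicate 1 or IL-4 replicate 2, Dlst without IL-4 replicate 2, and Fh1 without unstimulated replicate 1 or 2 or IL-4 replicate 1 or 3; adjusted p 0.0564 to 0.159). Acod1 had 4.98, 12.8 and 4.62 CPM with IL-4, against 17.9, 33 and 19.7 without it (log2 change -1.69 ± 0.384, adjusted p = 0.00331; -2.28 without IL-4 replicate 2), and missed the threshold when the 2 compared groups were fitted alone (adjusted p = 0.066). In wild type cells the IL-4 change of Acod1 was 0.49 and was not called. Under the block Dld (0.12, adjusted p = 0.0398) and Acly (0.14, adjusted p = 0.0101) were also higher in control hairpin cells and Me1 lower (-0.24, adjusted p = 0.016).

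In the shRNA experiment PGE2 lowered 7 of the 10 cycle genes and raised 1 in Etv1 hairpin cells, and lowered 6 and raised 0 in control hairpin cells. Of all 34 genes, 7 were higher and 13 lower than with IL-4 alone in Etv1 hairpin cells, where 24.6% of tested genes were called higher and 22.8% lower (medians -0.143 and 0.00735). Control hairpin cells had 4 higher and 14 lower, where 29.3% were called higher and 30.1% lower (medians -0.131 and -0.00823). Of the 14 genes lower with PGE2 in wild type cells, 11 were lower in Etv1 hairpin cells (78.6% of 14 and 84.6% of 13) and 11 in control hairpin cells (78.6% of each list). Lower in all 3 were Cs, Dlat, Fh1, Glud1, Idh2, Idh3a, Idh3b, Slc25a10, Suclg1 and Suclg2, and higher in all 3 were Glul and Pdk2. How often PGE2 calls recurred over all tested genes was not computed, so these overlaps are not read as particular to this list. Aco1 was called in opposite directions, higher in wild type and lower in control hairpin cells (-0.17), and neither call held under every setting.

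Idh3a had 53.5, 47.3 and 47.1 CPM with PGE2 in Etv1 hairpin cells, against 79.9, 76.7 and 82.7 with IL-4 alone (log2 change -0.69 ± 0.0771, adjusted p = 4.37e-07). Control hairpin cells had 40.2, 34.8 and 39.8 CPM with PGE2, against 79.3, 67 and 77.5 (-0.96 ± 0.0785, adjusted p = 3.06e-09). Neither pair overlapped. Suclg2, the GDP-forming succinyl-CoA ligase subunit, had 22.7, 21.6 and 24.3 CPM with PGE2 in Etv1 hairpin cells, against 41.3, 32 and 37.5 (-0.69 ± 0.087, adjusted p = 2.21e-06), and 14.3, 13 and 13.4 CPM in control hairpin cells, against 24.7, 22.7 and 26.9 (-0.87 ± 0.094, adjusted p = 1.46e-07). These Suclg2 groups were apart, while in wild type cells the change was -0.24 and rested on single libraries.

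Sucla2 was the cycle gene that rose, with 71.7, 68.8 and 70.2 CPM with PGE2 in Etv1 hairpin cells, against 61.3, 59.7 and 60.2 with IL-4 alone (log2 change 0.22 ± 0.0588, adjusted p = 0.00462). In control hairpin cells it had 73.3, 69.5 and 66.9 CPM, against 66.3, 67.5 and 63.6, which overlapped and was not called. Ogdh and Dlst were called in neither hairpin. Fh1 was lower in Etv1 hairpin cells (-0.48 ± 0.0626, adjusted p = 3.5e-06) and in control hairpin cells (-0.67 ± 0.063, adjusted p = 2.12e-08). Idh3b was lower in Etv1 hairpin cells (-0.41 ± 0.0541, adjusted p = 3.51e-06) and in control hairpin cells (-0.61 ± 0.0541, adjusted p = 1.05e-08). Glul had 581, 623 and 594 CPM with PGE2 in Etv1 hairpin cells, against 285, 345 and 268 with IL-4 alone (1.002 ± 0.11, adjusted p = 1.32e-06). Glul in control hairpin cells had 468, 409 and 524 CPM, against 208, 243 and 239 (1.03 ± 0.111, adjusted p = 5.67e-07). All PGE2 libraries exceeded all IL-4 libraries of the same hairpin. Mpc1, a subunit of the pyruvate carrier that was not called with PGE2 in wild type cells, was higher in Etv1 hairpin cells (0.30 ± 0.111, adjusted p = 0.0307) and in control hairpin cells (0.50 ± 0.11, adjusted p = 0.000611). Pdk2 was higher by 0.34 ± 0.137 in Etv1 hairpin cells (adjusted p = 0.0454) and by 0.46 ± 0.128 in control hairpin cells (adjusted p = 0.00445). The wild type rise of Pdk3 did not recur. Its change was -0.13 ± 0.144 in Etv1 hairpin cells (adjusted p = 0.49) and 0.03 ± 0.146 in control hairpin cells (adjusted p = 0.89). Pdk1 was lower in Etv1 hairpin cells (-0.55 ± 0.121, adjusted p = 0.00125), and Pdhb was higher (0.27 ± 0.0597, adjusted p = 0.00101).

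Kept under every setting were 3 of the 7 higher and 9 of the 13 lower PGE2 calls in Etv1 hairpin cells, and 3 of the 4 higher and 11 of the 14 lower in control hairpin cells. Among Etv1 hairpin cells the exceptions were Mpc1, Pdk2, Me2, Idh1, Cs, Idh3g, Slc25a10 and Glud1, and each of the 6 libraries ended at least 1 of these calls when left out (adjusted p 0.0501 to 0.172). Mpc1 came to 0.21 with adjusted p = 0.172 without PGE2 replicate 2. Among control hairpin cells they were Slc25a1, Pdhx, Aco1 and Glud1, each lost without 1 or more of the IL-4 and PGE2 libraries (adjusted p 0.0535 to 0.143) and under at least 1 other setting. With the replicate number as a block shared by both hairpins, Me1 (-0.20, adjusted p = 0.0383), Aco1 (-0.15, adjusted p = 0.0388) and Acod1 (-1.63, adjusted p = 0.0272) were also lower in Etv1 hairpin cells. Under the block Pdk1 (-0.21, adjusted p = 0.0205) and Me1 (-0.25, adjusted p = 0.00974) were also lower in control hairpin cells.

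**Figure D3:**
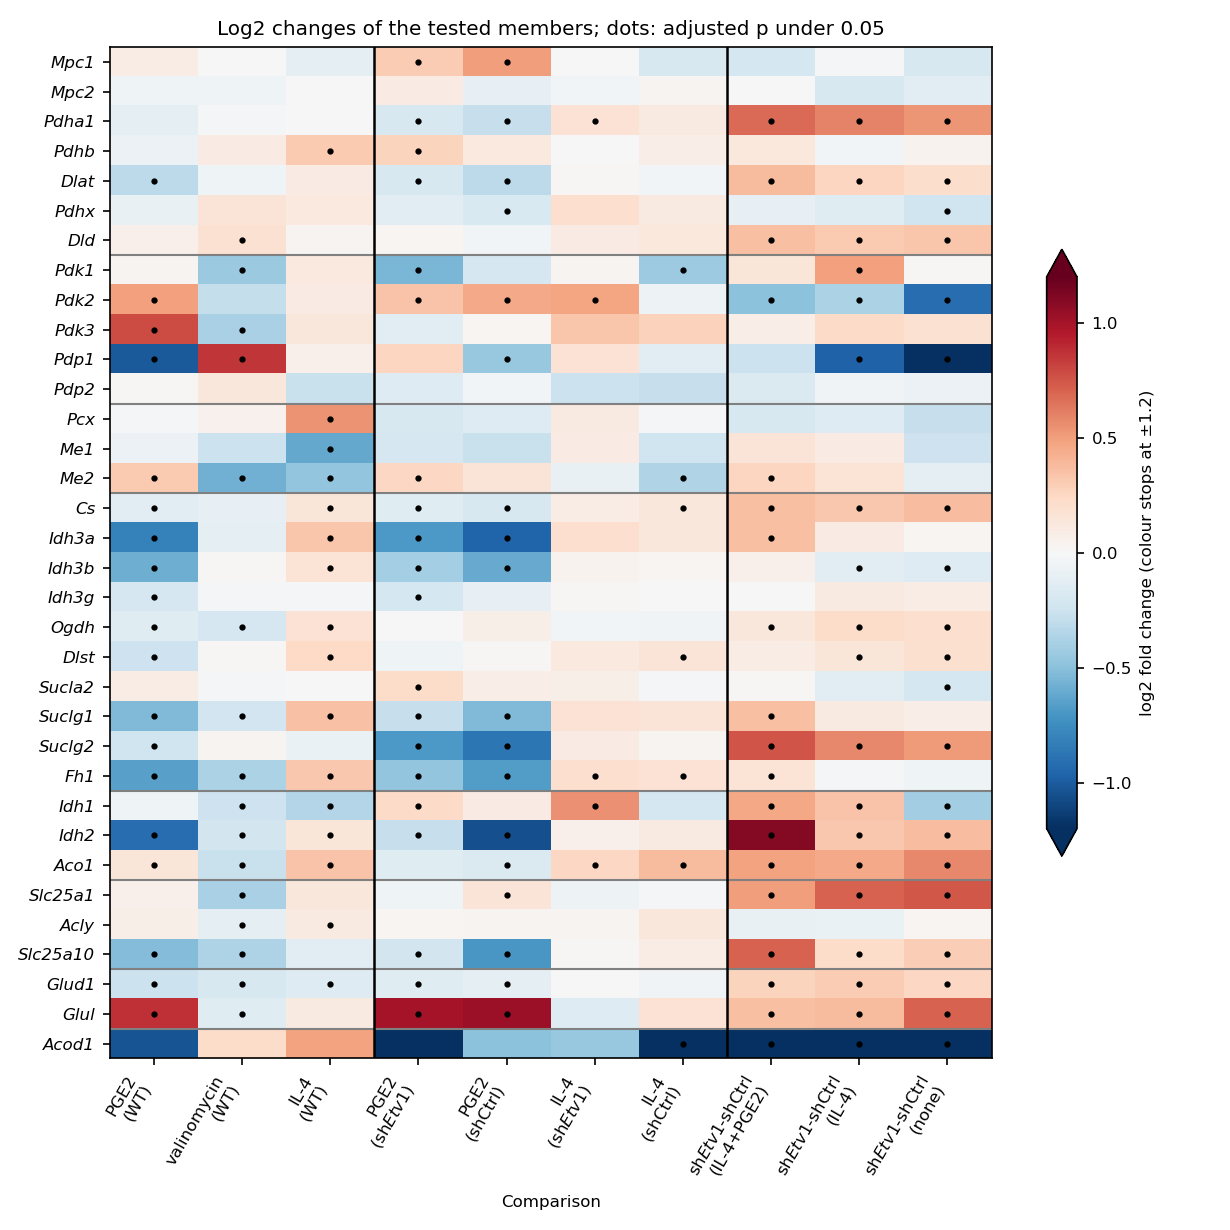
Log2 change of the 34 tested genes (rows, grouped by role) in 10 comparisons (columns): PGE2, valinomycin and IL-4 in wild type, PGE2 and IL-4 in Etv1 hairpin and control hairpin cells, and Etv1 against control hairpin in each condition. Red is higher, blue lower, and a dot marks an adjusted p under 0.05. The 3 PGE2 columns share blue in Idh2, Idh3a, Idh3b, Fh1 and Suclg1 and red in Glul.

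Compared with control hairpin cells, Etv1 hairpin cells had more of these genes higher than lower in each condition. Without stimulus 13 were higher and 7 lower (24.9% and 26.8% of all tested genes were called so), with IL-4 15 and 4 (25.4% and 25.6%), and with IL-4 and PGE2 17 and 2 (27.6% and 26.7%). The median log2 changes of the 34 were 0.0359, 0.13 and 0.15, against -0.0122, -0.00429 and -0.00119 over all tested genes. Macrophage marker levels moved with the hairpin too: their sum was 8770 to 10000 CPM in Etv1 hairpin libraries, against 15800 to 19700 in control hairpin libraries. Of the 7 markers, 1 was higher and 5 lower without stimulus and with IL-4, and 1 higher and 4 lower with PGE2, and their part in the values below was not tested. The labels name 1 Etv1 hairpin group and do not give its sequences, so an effect of lower Etv1 and an effect of the hairpin itself cannot be told apart.

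The pyruvate dehydrogenase subunit Pdha1 and the citrate carrier Slc25a1 were higher in all conditions. Pdha1 had 139, 144 and 137 CPM in unstimulated Etv1 hairpin cells, against 99.2, 98.6 and 91.9 in control hairpin cells (log2 change 0.53 ± 0.0501, adjusted p = 4.22e-08), with 0.59 ± 0.0502 under IL-4 (adjusted p = 1.06e-08) and 0.68 ± 0.0505 under IL-4 and PGE2 (adjusted p = 1.53e-09). Slc25a1 had 101, 108 and 101 CPM unstimulated, against 58.7, 62.9 and 63.4 (0.75 ± 0.052, adjusted p = 6.62e-10), with 0.71 ± 0.0527 (adjusted p = 1.86e-09) and 0.50 ± 0.052 (adjusted p = 1.35e-07) in the stimulated pairs. Neither gene overlapped between hairpins in any condition. Cs, Aco1, Dld, Suclg2, Glud1, Glul and Idh2 were also higher in each of the 3 conditions, by 0.25 (Glud1, unstimulated) to 1.10 (Idh2, IL-4 and PGE2), as were Dlat, Ogdh and Slc25a10. The IL-4 call of Slc25a10 was lost without replicate 1 or 2 of Etv1 hairpin or 1 or 3 of control hairpin cells (adjusted p 0.058 to 0.0931), and the IL-4 and PGE2 call of Ogdh without replicate 1 or 3 of either hairpin (adjusted p 0.0685 to 0.124), and both with no low count filter (adjusted p 0.0853 and 0.109). Glul was lost under IL-4 without Etv1 hairpin replicate 2 (0.27, adjusted p = 0.0536) or control hairpin replicate 1 (0.30, adjusted p = 0.059), and under IL-4 and PGE2 without control hairpin replicate 2 (0.27, adjusted p = 0.0626).

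Fewer genes were lower in Etv1 hairpin cells. Pdp1 had 10.6, 11.1 and 8.43 CPM unstimulated, against 24.2, 25.8 and 22.9 in control hairpin cells (log2 change -1.28 ± 0.124, adjusted p = 6.31e-08). It was also lower under IL-4 (-0.97 ± 0.125, adjusted p = 2.54e-06) and was not called under IL-4 and PGE2 (12.3, 14.3 and 13.9 CPM, against 16.2, 16 and 16.2). Pdk2 was lower unstimulated (-0.92 ± 0.139, adjusted p = 1.76e-05), under IL-4 (-0.38 ± 0.138, adjusted p = 0.0274) and under IL-4 and PGE2 (-0.50 ± 0.127, adjusted p = 0.0027). The IL-4 call of Pdk2 was lost without Etv1 hairpin replicate 2 or 3 or control hairpin replicate 2 or 3 (adjusted p 0.0539 to 0.123), and with DESeq2 (adjusted p = 0.064). Idh1 was lower unstimulated (-0.42 ± 0.0838, adjusted p = 0.000327) but higher under IL-4 (0.34 ± 0.0837, adjusted p = 0.00228) and under IL-4 and PGE2 (0.47 ± 0.0827, adjusted p = 9e-05).

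Acod1, which makes itaconate and is known as a gene of inflammatory macrophages, showed the largest hairpin difference, at low levels. Its unstimulated mean was 3.07 TPM in Etv1 hairpin, 30.3 in control hairpin and 2.15 in wild type cells. The 2 experiments were not tested against each other, so which hairpin group departs from untransduced cells was not tested. It had 2.02, 3.01 and 1.33 CPM in unstimulated Etv1 hairpin cells, against 17.9, 33 and 19.7 in control hairpin cells (log2 change -3.46 ± 0.46, adjusted p = 2.34e-05). Under IL-4 it had 1.86, 1.47 and 1.3 CPM, against 4.98, 12.8 and 4.62 (-2.23 ± 0.555, adjusted p = 0.00396; -1.65 without control hairpin replicate 2). Under IL-4 and PGE2 it had 0, 1.22 and 0.346 CPM, against 5.49, 5.98 and 4.56 (-3.39 ± 0.71, adjusted p = 0.00105). The groups were apart in all 3 conditions. The last value rested on 0, 12 and 4 counts in the Etv1 hairpin libraries and came to -2.77 without replicate 1 of that group and to -4.84 without replicate 2.

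Whether the PGE2 response itself differed between hairpins was tested as the difference of the 2 PGE2 effects. For 3 of 34 genes the PGE2 effect was less negative, or positive, in Etv1 hairpin cells, and for 0 it was more negative, where 6.03% of tested genes were called in the first direction and 5.58% in the second (medians 0.0513 and 0.0134). Idh2 had 49.8, 44.9 and 50.5 CPM with PGE2 in Etv1 hairpin cells, against 58.1, 55.3 and 62.6 with IL-4 alone (log2 change -0.28 ± 0.0745, adjusted p = 0.00476). In control hairpin cells it had 24.6, 22.2 and 21.5 CPM with PGE2, against 44.5, 44.8 and 51.2 (-1.05 ± 0.0802, adjusted p = 1.13e-09). Both pairs were apart, but the difference of the effects was 0.78 ± 0.109 (adjusted p = 0.000119).

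Slc25a10 showed the same form. It had 31.2, 32.1 and 31.2 CPM with PGE2 in Etv1 hairpin cells, against 36.8, 38.1 and 34.8 with IL-4 alone, a change of -0.22 that was lost without any of 4 single libraries (adjusted p 0.0635 to 0.098), with no low count filter or with DESeq2 (adjusted p 0.0586 and 0.0588). In control hairpin cells it had 19.3, 17.9 and 20.3 CPM, against 31.4, 33 and 29.8 (-0.70 ± 0.0812, adjusted p = 3.92e-07), and the difference was 0.48 ± 0.112 (adjusted p = 0.00703). Pdp1 had 12.3, 14.3 and 13.9 CPM with PGE2 in Etv1 hairpin cells, against 11.5, 12.2 and 10.2, which was not called, and 16.2, 16 and 16.2 CPM in control hairpin cells, against 19.4, 27 and 20.5 (-0.46). The difference for Pdp1 was 0.71 ± 0.176 (adjusted p = 0.0108), and its level in Etv1 hairpin cells was already low before PGE2. These 3 differences were kept under every setting and omitted library. With the replicate number as a block shared by both hairpins 5 genes passed, adding Idh3a (0.26, adjusted p = 0.0312) and Pdk1 (-0.34, adjusted p = 0.0361). Summed macrophage markers were 9280 to 9950 CPM with PGE2 and 9420 to 10000 with IL-4 in Etv1 hairpin cells, and 17300 to 18200 and 15800 to 17000 in control hairpin cells.

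For IL-4 the response differed in 1 gene of 34, where 2.71% of tested genes had a more positive and 1.81% a more negative effect in Etv1 hairpin cells (medians 0.0377 and 0.0181). Idh1 had 126, 124 and 111 CPM with IL-4 in Etv1 hairpin cells, against 87.8, 79.6 and 80.1 without stimulus (log2 change 0.55 ± 0.0842, adjusted p = 8.16e-05). In control hairpin cells it had 84.4, 109 and 92.4 CPM with IL-4, against 103, 116 and 112, which overlapped and were not called (-0.21 ± 0.0834, adjusted p = 0.0572). The difference was 0.76 ± 0.118 (adjusted p = 0.000717) and was kept under every setting, and under the replicate block 2 genes passed, adding Pdk1 (0.47, adjusted p = 0.00518). In wild type cells Idh1 was lower with IL-4, at -0.35.

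**Figure D4:**
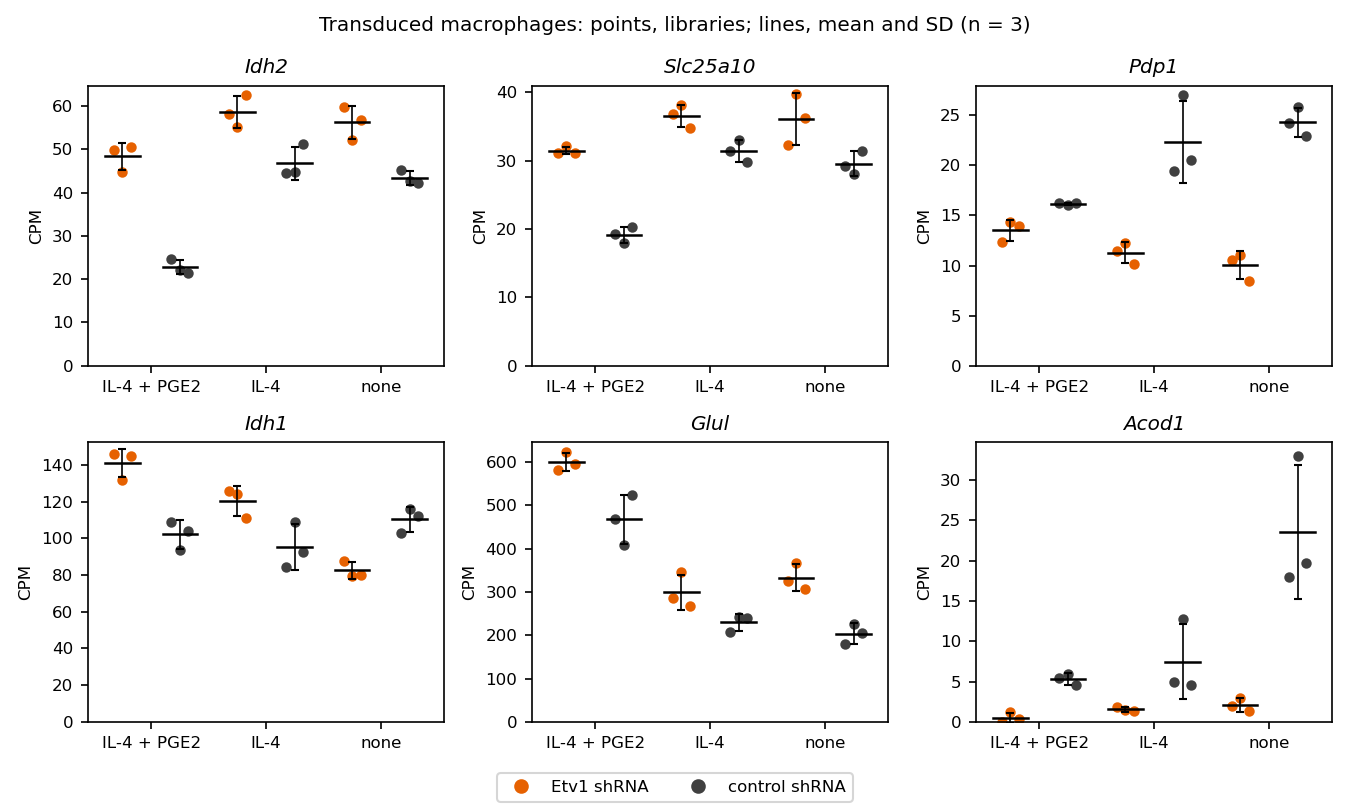
CPM of 6 genes in the shRNA experiment, 1 point per library with mean and SD over 3 libraries, under IL-4 with PGE2, IL-4 alone and no stimulus, Etv1 hairpin left of control hairpin. Idh2 and Slc25a10 fall with PGE2 to 21.5 to 24.6 and 17.9 to 20.3 CPM in control hairpin cells, Pdp1 and Acod1 are low in Etv1 hairpin cells, and Idh1 has its lowest mean in unstimulated Etv1 hairpin cells.

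Of 38 further genes of the pathway, 35 were tested in wild type and 36 in shRNA cells. In wild type cells IL-4 gave 13 higher and 3 lower, where 24.0% and 22.4% of all tested genes were called so. PGE2 gave 7 and 17 (median log2 change -0.143, with 29.9% and 29.5% of all tested genes), and valinomycin 4 and 15 (median -0.146, with 19.4% and 18.9%). In Etv1 hairpin cells PGE2 gave 7 higher and 17 lower (median -0.187, with 24.6% and 22.8%), and in control hairpin cells 9 and 19 (median -0.308, with 29.3% and 30.1%). Slc25a13, an aspartate-glutamate carrier, had 28.8, 28.1 and 25.5 CPM with PGE2 in wild type cells, against 100, 90 and 96.4 with IL-4 alone (-1.79 ± 0.0634, adjusted p = 5.99e-17). Its PGE2 change was -0.82 ± 0.106 in Etv1 hairpin cells and -1.92 ± 0.111 in control hairpin cells (difference 1.10 ± 0.152, adjusted p = 0.00015). The aminotransferase genes Got1 and Gpt2 rose with PGE2 in wild type cells, by 1.38 ± 0.0617 (adjusted p = 3.9e-15) and 1.49 ± 0.0629 (adjusted p = 1.39e-15).

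Fasn, fatty acid synthase, which uses the acetyl-CoA made from citrate, was lower with PGE2 (-1.07 ± 0.0684, adjusted p = 2.82e-11) and with valinomycin (-0.57 ± 0.0663, adjusted p = 1.01e-06). Pck2, mitochondrial phosphoenolpyruvate carboxykinase, had 45.9, 50.1 and 40.2 CPM with valinomycin, against 16.7, 20.3 and 16.8 with IL-4 alone (1.33 ± 0.09, adjusted p = 4.63e-11), and 16, 17.7 and 17.9 with PGE2, which was not called. The amino acid transporter Slc38a2 had 198, 194 and 158 CPM with valinomycin, against 52.4, 41.6 and 51 with IL-4 alone (1.93 ± 0.0914, adjusted p = 4.09e-10). Acss1, mitochondrial acetyl-CoA synthetase, rose with IL-4 in wild type cells, to 72.9, 68.6 and 68 CPM, against 26.7, 26.8 and 25.8 without stimulus (1.40 ± 0.0719, adjusted p = 5.41e-14). The lactate exporter Slc16a3 rose with PGE2 in Etv1 hairpin cells (1.93 ± 0.0801, adjusted p = 6.36e-13) and in control hairpin cells (2.86 ± 0.0813, adjusted p = 9.28e-16).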

How the data were processed

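The authors deposited whole-number counts of reads per gene ID for each library, with no normalization. The submitters' processing notes name STAR, featureCounts, DESeq2, deepTools and the genome build GRCm38; versions and the strand setting are not given in the sources used here. Gene IDs were paired with symbols for 42548 of 43629 (97.52%), and unmatched IDs held 0.153% of reads. Wild type and shRNA libraries were fitted apart, and levels were not compared between them. Low counts were filtered with edgeR's filterByExpr, which left 12824 and 12382 genes, and counts were scaled by TMM. Tests were edgeR 4.0.16 quasi-likelihood tests in R 4.3.3 with Benjamini-Hochberg adjustment over all tested genes, called at 0.05. They were also run on simulated counts drawn independently for each library. The outcome of that run is not given here and is not used as support. CPM uses the scaled library size. TPM divides counts by the summed exon length. No pair of replicates agreed within sampling noise (lowest chi-square per degree of freedom 1.246). The genes and lists were chosen with earlier results of these data known. Named with full statistics were, per comparison, up to 8 called genes with the smallest adjusted p, called genes of a preset set of enzymes, and up to 4 other pathway genes with the smallest adjusted p. Alternatives were RLE size factors, no low count filter, DESeq2 1.42.0, compared groups only, a replicate block and each library left out in turn. Replicate numbers were taken as pairing libraries where all 3 same-numbered pairs of the compared groups deviated from their group means together (correlation over 0.1). This held within each hairpin for the IL-4 comparison (0.187 to 0.325 in Etv1 hairpin and 0.213 to 0.49 in control hairpin cells) and the PGE2 comparison (0.106 to 0.293 and 0.146 to 0.433). Different-numbered shRNA libraries had a median of -0.0895. Deviations cancel out within a group, so positive same-numbered values force others negative, and that median is no separate support. Some different-numbered pairs passed 0.1 too, up to 0.184. In control hairpin cells IL-4 replicate 1 with PGE2 replicate 3 reached 0.16, and unstimulated replicate 1 with IL-4 replicate 3 reached 0.152. The pairing is thus an assumption drawn from these correlations, as the labels do not say what a number marks. The block gave each number the same effect in both hairpins, so it also paired libraries across hairpins, which was not assumed.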

Additional observations from a re-analysis of the deposited data

Results flagged for a closer look

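For 4 genes the effect of a stimulus differed between Etv1 hairpin and control hairpin cells by a test of the difference itself (edgeR quasi-likelihood test, adjusted over all tested genes). The PGE2 effect was higher in Etv1 hairpin cells by 0.7754 for Idh2 (log2 scale), by 0.7136 for Pdp1 and by 0.4835 for Slc25a10. The IL-4 effect was higher in Etv1 hairpin cells by 0.7575 for Idh1. These were 3 of 34 genes for PGE2 and 1 of 34 for IL-4. Over all tested genes, 6.03% and 2.71% were called in the same direction, so the counts themselves do not set these genes apart.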

How the results depend on the processing

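Of 510 pairs of gene and comparison, 221 were called. Of these, 172 kept their call and direction under every alternative setting and every omitted library, 49 lost it under at least 1, and 0 reversed; 42 of the 289 uncalled became called under at least 1. The count of called genes moved by over 1.5 times in 4 comparisons. IL-4 in Etv1 hairpin cells (5 called) gave 3 with no low count filter, 3 with DESeq2, and 2 to 4 with 1 library left out. IL-4 in control hairpin cells (7 called) gave 3 when only the compared groups were fitted. A replicate block moved 2 more: the difference of PGE2 effects between hairpins (3 called) gave 5 and that of IL-4 effects (1 called) gave 2; the cause was not tested. Numbers were taken to pair libraries within each hairpin, but the block gave each number the same effect in both hairpins. It is thus not a fit of the pairing assumed here. With it, no call of an IL-4 or PGE2 comparison within a hairpin changed beyond those printed beside the results. Elsewhere numbers were not taken to pair libraries. Same-numbered libraries correlated at -0.0758 to 0.198 in wild type (18 pairs, median 0.0391, other pairs -0.0134), and between hairpins not every pair passed 0.1. There the block ended Pdk1 with valinomycin (adjusted p = 0.0619) and added Dld for PGE2 against valinomycin, Me1 for unstimulated Etv1 against control hairpin cells and Pdp1 for that pair under IL-4 and PGE2. No scaling moved the median of all genes by over 0.1 on the log2 scale. Depth limits Acod1, which had 0 to 18 counts in stimulated Etv1 hairpin libraries, and Pdk4.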

Other observations

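Of 4 tested genes listed for lipoate synthesis and related 2-oxoacid dehydrogenases, 2 were lower with PGE2 and 0 higher in wild type cells, where 29.5% of all tested genes were called lower. The 2 were the lipoate transferase genes Lipt2 and Lipt1, singled out after their values were seen. Lipt2 had 3.14, 4.12 and 2.92 CPM with PGE2, against 6.28, 5.18 and 6.48 with IL-4 alone (log2 change -0.81, edgeR adjusted p = 0.000225), and 3.29, 3 and 3.53 with valinomycin (adjusted p = 0.000233). Lipt1 had 1.07, 0.601 and 0.973 CPM with PGE2, against 1.66, 2.07 and 2.73 (-1.28, adjusted p = 0.000472). Lias, lipoic acid synthetase, was at 0.13 and Dhtkd1, a 2-oxoadipate dehydrogenase component, at -0.02, and neither was called. In the shRNA experiment 5 of these genes were tested, and Lipt1, Lipt2, Ogdhl and Dhtkd1 were lower with PGE2 in Etv1 hairpin cells (median of the 5 -1.04, with 22.8% of all tested genes called lower) and in control hairpin cells (median -1.39, with 30.1%), while Lias was called in neither. The glutamine transporter Slc1a5, also chosen after its values were seen, had 51.1, 46.2 and 39.7 CPM with PGE2 in wild type cells, against 112, 107 and 105 with IL-4 alone (-1.23 ± 0.0889, SE, adjusted p = 3.35e-09), and the PGE2 and IL-4 groups did not overlap.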
